A study of Canis rufus and Canis latrans with 56 samples.

Results

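The phagocyte NADPH oxidase and its Rac GTPases were followed through 6 genes, CYBB, CYBA, NCF1, NCF4, RAC1 and RAC2. They were found by gene symbol in the probe annotation, which gave 9 of 24354 probes and 6 of 16121 named genes. Whole blood was the RNA source, from 1 coyote (Canis latrans) and 13 red wolves (Canis rufus, a rare canid of the southeastern United States). It was kept in RNAlater until extraction. Each animal was run on 4 arrays, which makes 56 arrays on 7 slides of 8. The coyote was a free-ranging female. The design text counts 6 captive and 7 free-ranging wolves. The labels used here give no sex for single wolves, and beyond a remark on wild collection for 3 of them no status, so neither was compared. The 4 arrays of an animal share its RNA and measure array noise, so each animal counts once.

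The oxidase is the enzyme with which neutrophils, monocytes and eosinophils make superoxide to kill engulfed microbes. Its catalytic core, cytochrome b558, is a membrane pair of CYBB (gp91phox, also called NOX2) and CYBA (p22phox). In resting cells the adaptor proteins wait in the cytosol. On stimulation adaptors such as NCF1 (p47phox) and NCF4 (p40phox) move to the membrane together with a GTP-loaded Rac protein, and electrons then pass from NADPH to oxygen. Loss of CYBB, CYBA, NCF1 or NCF4 in humans causes chronic granulomatous disease, in which phagocytes cannot mount this burst. RAC2 is the Rac form of blood cells, and RAC1 is found in nearly all cells and also steers the actin cytoskeleton.

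Probes were designed on human transcripts, so each name below is a human probe's, and the canid RNA it bound is unknown here. CYBB, CYBA, NCF1 and RAC2 have 1 probe each, RAC1 has 2 and NCF4 has 3. In humans NCF1 has near-identical pseudogenes, so its probe may not read a single gene. A level is a log2 intensity relative to the mean of its array, adjusted for slide, so that a step of 1 doubles the intensity. Probes bind unequally, so their levels do not rank the transcripts. The array-to-array noise of the 9 probes among the wolves, an SD between 0.10 and 0.17, limits the precision of each value.

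Background was bounded by 37 measured genes of liver and skeletal muscle, of which HPX, the haem carrier of plasma, had the highest mean, 0.396. Above it lay 2064 probes, 8.47% of all. The bound was passed by 1 of 23 measured neutrophil markers (CDA, cytidine deaminase, 4.91) and by 2 of 15 monocyte markers (TYROBP and FCER1G, 0.57 and 0.40 over the 14 animals). The mean of FCER1G includes a coyote level of 2.03, and its median over the wolves, 0.18, lay below the bound. The neutrophil alarmins S100A8 and S100A9 stood at -0.24 and 0.06 and the granule enzyme MPO at 0.08, so defining phagocyte markers lay at background on these probes. In whole blood, fewer cells of a type and less RNA per cell cannot be told apart.

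Of the 9 probes, 2 had a mean level above the bound: the RAC1 probe for all isoforms (0.88 over the 14 animals) and, by 0.03, that of NCF1 (0.43). The other 7 lay below it, from 0.21 for an isoform probe of NCF4 to -0.23 for CYBA. The same 2 probes passed the test among the 13 wolves, a moderated F test of the animals (limma, slide as a covariate, adjusted p under 0.05). In that test 11.2% of all probes passed, 78.1% of those above the bound and 5.02% of the others, and 2 of 2 above the bound with 0 of 7 below it is close to those shares. None of the 9 probes passed in the coyote comparison.

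**Figure D1:**
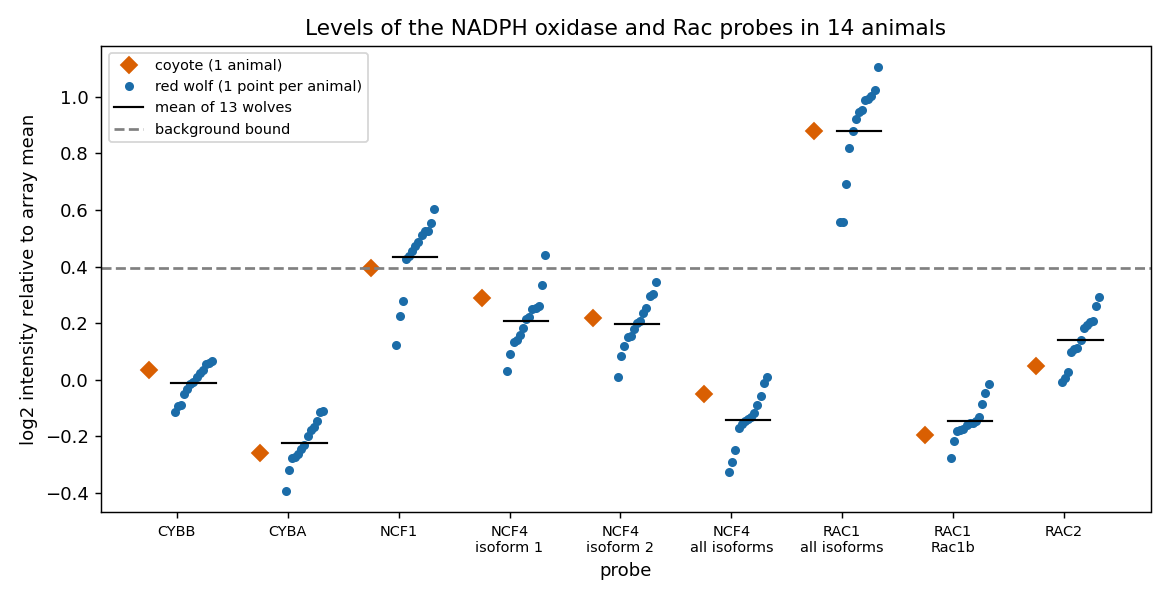
Level of each of the 9 probes (log2 intensity relative to the array mean, adjusted for slide) in the coyote (diamond) and in the 13 red wolves (points, sorted within each probe), with the wolves' mean (bar) and the background bound of 0.396 (dashed line). Isoforms 1 and 2 of NCF4 are the probes of NM_000631 and NM_013416. All animals lay above the bound for the RAC1 probe of all isoforms, 10 of 13 wolves did for NCF1, and the coyote lay within the wolves' range for each probe.

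The catalytic core gave no signal that could be told from background. CYBB, which carries the haem and flavin groups that move the electrons, stood at 0.04 in the coyote and at -0.01 ± 0.06 in the wolves (SD, n = 13). The wolves ran from -0.11 in wolf 11105 to 0.07 in wolf 111080, with a median of -0.01, a span of 1.13-fold. CYBA, the partner that stabilises CYBB, had a level of -0.26 in the coyote, against -0.23 ± 0.08 in the wolves. Its lowest wolf was 111080 at -0.40, its median -0.23 and its highest wolf 10537 at -0.11. None of the 14 animals reached the bound for either gene, and no gap between neighbouring wolves exceeded the SD between arrays, 0.13 for CYBB and 0.14 for CYBA. Neither gene differed among the wolves in limma's F test, with adjusted p values of 0.812 for CYBB and 0.487 for CYBA. At this level a difference between animals was not detectable, which does not show that the transcripts are absent or equal.

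NCF4, whose product binds a membrane lipid of the phagosome, was read by 3 probes that did not follow each other. The probe specific to the transcript NM_000631 had a level of 0.29 in the coyote, against 0.21 ± 0.11 in the wolves, from 0.03 in wolf 11310 through a median of 0.21 to 0.44 in wolf 11273. That of the other transcript, NM_013416, had 0.22 in the coyote, against 0.20 ± 0.09 in the wolves, from 0.01 in wolf 11105 to 0.34 in wolf 10537. The probe meant for all isoforms lay lowest, with -0.05 in the coyote, against -0.14 ± 0.10 in the wolves, from -0.33 in wolf 11206 to 0.01 in wolf 11136. One wolf value of the 3 probes passed the bound, that of wolf 11273. Over the 13 wolves the isoform probes had a Pearson r of -0.051 with each other, and the probe for all isoforms had 0.088 with the first and -0.780 with the second. These are descriptions over values that share arrays and slides. The adjusted p values among wolves were 0.334, 0.534 and 0.173, so none of the 3 probes passed.

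NCF1, the organiser that brings the other cytosolic subunits to the membrane, lay close to the bound. It stood at 0.40 in the coyote, at the bound itself, and at 0.43 ± 0.14 in the wolves (SD, n = 13). Wolf 11136 was lowest at 0.12, followed by wolf 10632 at 0.22 and wolf 11310 at 0.28. The other 10 wolves lay above the bound and within a narrow band. In rising order they were wolf 11270 at 0.43, 111080 at 0.44, 11148 at 0.45, 11274 at 0.47, 11275 at 0.49, 10406 at 0.51, 10537 at 0.52, 11206 at 0.53, 11105 at 0.55 and 11273 at 0.60. Of the 12 gaps between neighbouring wolves 1 exceeded the SD between arrays of 0.14, the gap of 0.15 between wolf 11310 and wolf 11270. The whole span was 1.39-fold, on intensities that lie near background.

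NCF1 differed among the wolves at an adjusted p of 0.0232 in limma's F test, with 0.379 of its variance between wolves. This call was easily lost. Without the arrays numbered 2 of each animal the adjusted p was 0.458, and without those numbered 3 it was 0.201. Without wolf 11136 it was 0.392 and without wolf 10632 it was 0.122. The call was also lost once all arrays were forced to 1 distribution by quantile normalization (0.105), without the slide term (0.0694) and with slide as a random block (0.0612). On the arrays as deposited, wolf 11136 had 0.19, -0.34, 0.05 and 0.07, below the mean of the other wolves of the slide on 4 of 4 slides, by differences between -0.71 and -0.16. Wolf 10632 was likewise lower on 4 of 4 slides, and wolf 11310 on 3 of 4.

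RAC1 was the member with the smallest p among the wolves. Its probe for all isoforms stood at 0.88 in the coyote and at 0.88 ± 0.18 in the wolves (SD, n = 13). Wolves 11310 and 11136 were lowest, both at 0.56, and wolf 10632 had 0.69. Above them came wolf 11270 at 0.82, 11274 at 0.88, 10406 at 0.92, 11105 at 0.95, 10537 at 0.96, 11148 and 11275 at 0.99, 11273 at 1.00, 11206 at 1.02 and 111080 at 1.11. The single gap between neighbours above the SD between arrays of 0.13 lay between wolf 11136 and wolf 10632, at 0.14. The 3 lowest wolves were thus the same for RAC1 and NCF1. In both orders all the other gaps between neighbours stayed below the SD between arrays. That SD is for single arrays, and a level rests on several, so it is wider than the noise of a level. Whether the smaller gaps exceed the noise of the levels was not tested.

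RAC1 differed among the wolves at an adjusted p of 0.000311 in limma's F test, over a span of 1.46-fold, with 0.582 of its variance between wolves. The extreme wolves, picked from these same arrays, kept their side of the mean of the other wolves on each slide. Their rank was not kept. As deposited, wolf 111080 had 1.15 on slide 32020, below wolf 11148 at 1.36. On slide 32010 wolf 11310 had 0.66, above wolf 11136 at 0.27. Wolf 11310 was lower than the mean of the other wolves of the slide on 4 of 4 slides, by differences between -0.59 and -0.09. Wolf 11136 was lower on 4 of 4, between -0.54 and -0.19, and wolf 10632 on 4 of 4, between -0.35 and -0.14. Wolf 111080 was higher on 4 of 4, by 0.11 to 0.39. No single wolf decided the call, since leaving each out in turn gave adjusted p values between 0.000145 and 0.00855. It was lost without the arrays numbered 3 of each animal (0.0649) and after quantile normalization (0.266).

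**Figure D2:**
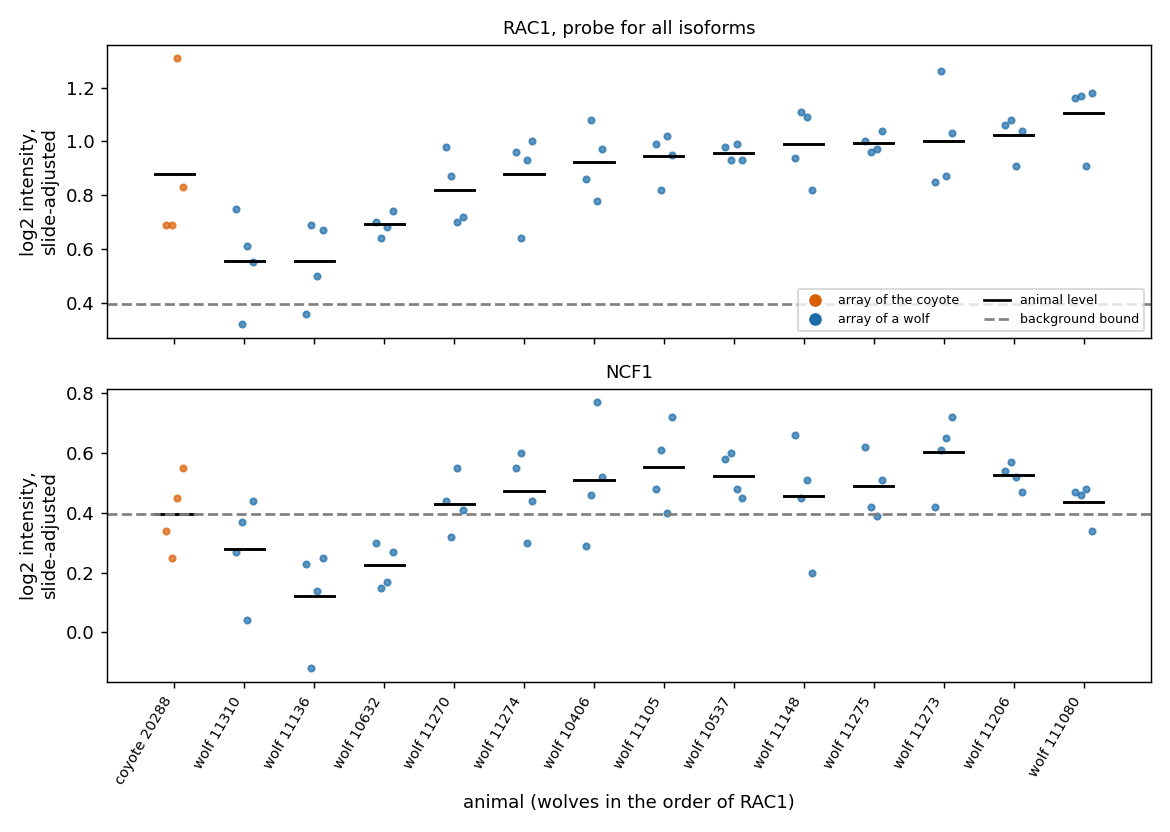
Values of the 4 arrays of each animal (points, log2 intensity adjusted for slide) and the animal's level (bar) for the RAC1 probe of all isoforms (top) and NCF1 (bottom), with the coyote at the left, the 13 wolves in the order of RAC1 and the background bound of 0.396 (dashed line). Wolves 11310, 11136 and 10632 were lowest for both genes, at 0.56, 0.56 and 0.69 for RAC1 and at 0.28, 0.12 and 0.22 for NCF1.

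The second RAC1 probe is specific to the transcript NM_018890, which encodes the splice form Rac1b. It lay at background, with -0.20 in the coyote, against -0.15 ± 0.07 in the wolves, and did not pass the test among wolves (adjusted p = 0.808). RAC2, the form that dominates in neutrophils, had 0.05 in the coyote, against 0.14 ± 0.09 in the wolves. It ran from -0.01 in wolf 10537 through a median of 0.14 to 0.29 in wolf 11273, below the bound in all 14 animals. In limma's F test RAC2 had an unadjusted p of 0.0467 and an adjusted p of 0.216, and it did not pass.

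Collection in the wild is mentioned on 1 array each of wolves 11136, 111080 and 11310, and on 1 of the coyote. These 3 wolves held both of the lowest levels of RAC1 and its highest one. Since these labels carry no such remark for the other 10 wolves, it defined no group.

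The level of RAC1 went with the signal range of the arrays. The 95th percentile of an array, averaged over the 4 arrays, was 0.673 in the coyote and ran from 0.381 in wolf 11136 to 0.866 in wolf 111080, the wolf with the highest RAC1. Wolves 10406, 11310 and 10632 had 0.568, 0.607 and 0.685. These ranges were not adjusted for slide. By mean level the RAC1 probe stood at percentile 96.2 of all probes and NCF1 at 92.1, near the percentile used here. Over the 13 wolves RAC1 and this range had a Pearson r of 0.784 (permutation p = 0.00217, two-sided, adjusted over 66 relations 0.0521) and Spearman's rho was 0.824 (permutation p = 0.00104, adjusted 0.0343). Leaving out 11136 and 10406, the wolves with the most extreme range, gave an r of 0.839. The 7 slides taken singly gave values between 0.317 and 0.891. By r the relation passed in 5 of 24 other settings. Among them were median centring (r 0.802, permutation adjusted p = 0.0208) and centring on the 75th percentile (0.777, 0.0471). Quantile normalization gives all arrays 1 distribution, so that their 95th percentiles are equal but for ties. The r of -0.364 found there (permutation adjusted p = 0.607) therefore says nothing about the relation.

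NCF1 had an r of 0.717 with the signal range (permutation p = 0.00814, adjusted p = 0.107) and a rho of 0.467 (adjusted p = 0.552). Without wolves 11136 and 10406 r was 0.668, and within slides it lay between 0.164 and 0.917. By r it passed in 4 of 24 other settings, but not with median centring (r 0.745, permutation adjusted p = 0.0516). Among the 2064 probes above the bound the median r with the signal range was 0.458, and 2.71% had at least the value of RAC1 and 7.36% at least that of NCF1. Wolf 11136 was the lowest wolf for 40.4% of these probes and wolf 11310 for 22%. For 10.8% of them wolves 10632, 11136 and 11310 were the 3 lowest. The part of the signal range in the calls of RAC1 and NCF1 was not tested further.

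**Figure D3:**
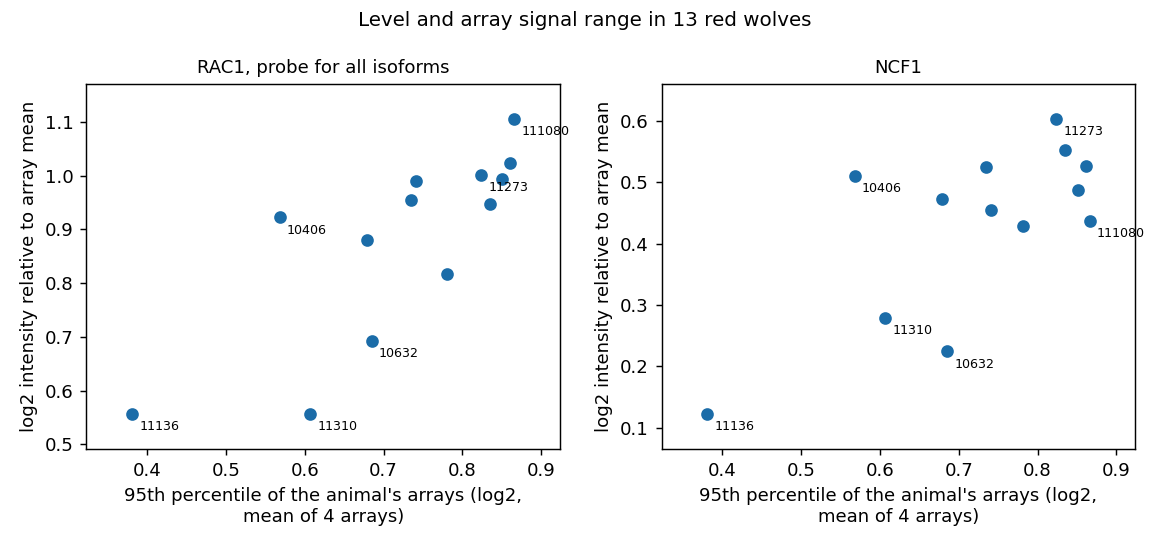
Level of the RAC1 probe of all isoforms (left) and of NCF1 (right), as log2 intensity relative to the array mean, against the 95th percentile of the wolf's arrays (log2, mean of 4 arrays), with 1 point per wolf for 13 red wolves. Wolf 11136 had the smallest range, 0.381, with a RAC1 level of 0.56 and an NCF1 level of 0.12, and wolf 111080 the largest, 0.866, with levels of 1.11 and 0.44.

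The next question was whether the subunits went together over the 13 wolves. Of the 15 pairs of the 6 genes, each read by its brightest probe, 1 passed, NCF1 with RAC1. It had a Pearson r of 0.851 (permutation p = 0.00113, two-sided, adjusted over 15 pairs 0.0169) while Spearman's rho was 0.643 (permutation p = 0.0211, adjusted 0.158) and did not pass. Leaving out 11136 and 10632, the most extreme wolves for NCF1, gave an r of 0.724. Within the 7 slides r lay between 0.096 and 0.776. With 1 wolf left out in turn, the call was lost without 10632 (r 0.833, permutation adjusted p = 0.0814), without 11136 (0.789, 0.0522) and without 11310 (0.833, 0.0628). It was also lost without the arrays numbered 3 (0.716, 0.0903) and after quantile normalization (0.504, 0.436).

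For pairs with NCF4, its probe specific to NM_000631 was used. NCF1 with NCF4 had an r of 0.693 (permutation p = 0.00898, adjusted p = 0.0673) and a rho of 0.654 (adjusted p = 0.158). Without wolves 11136 and 10632 r was 0.823, and within slides it lay between -0.058 and 0.814. The pair passed in 6 of 23 other settings, among them median centring (r 0.75, permutation adjusted p = 0.0231). Without 1 array number r fell as low as 0.372. RAC1 and RAC2 had an r of 0.232 (permutation, adjusted p = 0.676). The 2 partners of the catalytic core, CYBB and CYBA, had an r of -0.431 (permutation, adjusted p = 0.533), with both at background. In all, 8 of the 15 pairs had a negative r, and the 14 pairs that did not pass had adjusted p values between 0.0673 and 0.977.

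Of the 66 relations of the 6 genes with 10 marker lists and the signal range, 1 passed by Pearson's r, between NCF4 and the red cell list. The r was 0.822 (permutation p = 0.00037, adjusted p = 0.0244) and the rho 0.846 (permutation p = 0.00052, adjusted p = 0.0343). Without wolves 11105 and 11273 r was 0.789, and single slides gave values between -0.190 and 0.984, so the relation was not seen on every slide. Without the arrays numbered 1, 2 or 4 the call was lost (r 0.801, 0.697 and 0.552, permutation adjusted p = 0.0604, 0.135 and 0.314). It was also lost without wolf 111080 (0.0518), wolf 11148 (0.0627) or wolf 11310 (0.137). The NCF4 probe used, the one specific to NM_000631, lay below the bound and did not differ among the wolves in the F test. It had an r of -0.051 with the probe of NM_013416 and 0.088 with that for all isoforms. Those probes were not correlated with the lists. The 17 measured red cell genes, 7 of them above the bound, had a mean level of 0.65 in the coyote and from 0.53 in wolf 11310 to 0.95 in wolf 11105 among the wolves. NCF1 had with this list an r of 0.738 (permutation p = 0.00237, adjusted p = 0.0521) and a rho of 0.725 (adjusted p = 0.142), and did not pass. Without wolves 11105 and 11273 its r was 0.664, and single slides gave -0.070 to 0.924. It passed in 6 of 24 other settings, among them median centring (0.0208), no slide term (0.00528) and list genes above the bound (0.0184), and after quantile normalization r was 0.533 (0.284). The part of red cell RNA in the NCF1 differences was not tested.

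With the neutrophil list, whose mean level was 0.25 in the coyote and 0.14 to 0.27 in the wolves, NCF1 had an r of -0.197, RAC1 0.017, RAC2 -0.356, CYBB 0.018, CYBA -0.025 and NCF4 -0.480 (permutation, adjusted p values between 0.407 and 0.958). With the monocyte list, at 0.09 in the coyote and -0.12 to 0.00 in the wolves, NCF4 had an r of -0.722 (adjusted p = 0.0810), RAC1 -0.623 (0.213) and NCF1 -0.577 (0.229). Neither the neutrophil nor the monocyte list passed with any of the 6 genes. Of the 23 neutrophil markers, 22 lay at or below the bound. A list score is the plain mean over its genes, so genes that vary most weigh most. CDA had an SD of 0.98 over the wolves, against 0.17 for ALPL, the next most variable neutrophil marker. The neutrophil score therefore reads CDA to a large part, and its r values do not speak for neutrophil markers at large.

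By their pattern over the 13 wolves, the genes most like RAC1 among 1595 genes above the bound were FGF18 (a growth factor, r = 0.961), SEPTIN9 (a filament-forming GTPase, 0.958), TNXB (an extracellular matrix protein, 0.941), MAGEL2 (a regulator of ubiquitin ligases, 0.936) and EHMT2 (a histone methyltransferase, 0.918). Those most like NCF1 were DAND5 (a secreted antagonist of growth factors, 0.957), LYPLA2 (an enzyme that removes palmitate from proteins, 0.952), EHMT2 (0.95), LGALS9 (a galectin, 0.943) and VPS28 (a subunit of the endosomal sorting complex, 0.941). Of these 9 genes wolf 11136 had the lowest level of each except SEPTIN9, which was lowest in wolf 11310. Over the 1595 genes the median r was 0.51 with RAC1 and 0.548 with NCF1, and 51.4% had an r of at least 0.5 with RAC1 and 54.0% with NCF1.

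The coyote was then compared with the 13 wolves, each animal giving 1 value. For RAC1 the difference was -0.0021 on the log2 scale (SE 0.21, 95% interval -0.43 to 0.43; limma adjusted p = 0.999), so a coyote level between 0.741 and 1.35 times that of the wolves lies within the interval. The 4 coyote arrays scattered widely for this probe, at 0.59, 0.49, 1.56 and 0.87 as deposited. Against the wolves of the same slide they stood at -0.14, -0.24, 0.50 and -0.05, so 1 slide went against the other 3. For NCF1 the difference was -0.04 (SE 0.15, interval -0.34 to 0.27, adjusted p = 0.998), with 10 of 13 wolves above the coyote.

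The other 7 probes had differences between -0.09 (RAC2, interval -0.30 to 0.12) and 0.09 (the NCF4 probe for all isoforms, interval -0.09 to 0.28), each with an adjusted p of 0.998. At an unadjusted p under 0.05, 3.74% of all probes passed and 0 of the 9. CYBB differed by 0.05 (interval -0.12 to 0.21) and CYBA by -0.04 (-0.21 to 0.13). The coyote lay within the range of the wolves for 9 of 9 probes, where 12.2% of all probes had the coyote outside that range. In this test 1 of 24354 probes passed, 0.00411%, and it is none of the 9. It was the probe of FCER1G, the Fc receptor gamma chain that passes on the signal of antibody-coated particles, at 2.03 in the coyote and -0.19 to 0.82 in the wolves (limma adjusted p = 0.00132). The coyote is 1 animal, and its spread was taken to equal that of the wolves.

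**Figure D4:**
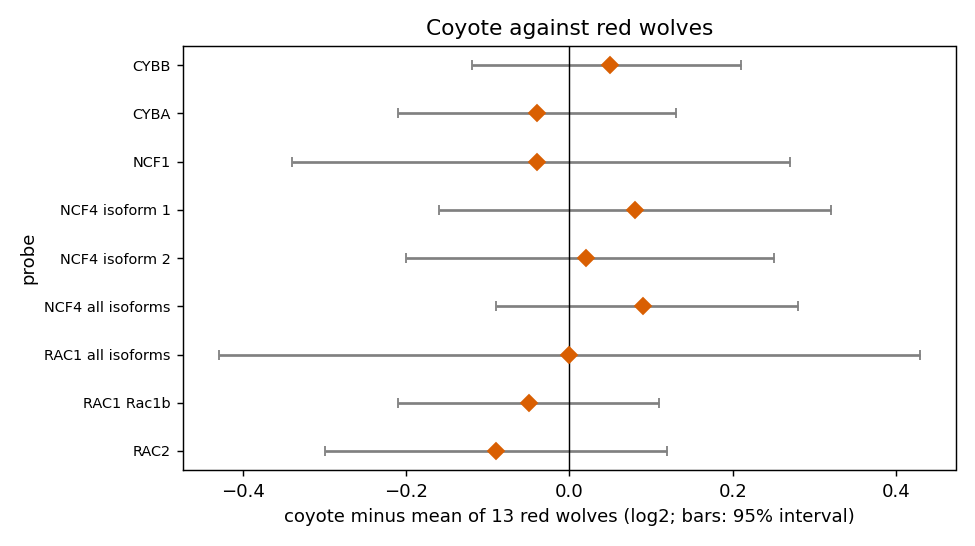
Difference of the coyote from the mean of the 13 red wolves (log2) for the 9 probes, with 95% intervals from limma. Isoforms 1 and 2 of NCF4 are NM_000631 and NM_013416. Each interval includes 0, and the widest is that of the RAC1 probe of all isoforms, -0.43 to 0.43.

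Genes around the oxidase were read from 5 lists of the pathway. Of 86 measured genes in these lists, each read by its brightest probe, 13 differed among the wolves (15.1%). Over all probes, a set unlike these genes because it also holds dimmer probes of the same gene, 11.2% passed. The 8 genes that lay above the bound were all among the 13, and 78.1% of all probes above the bound passed. The median share of variance between wolves was 0.0938 over the 86 genes and 0.0652 over all probes. None of the 86 passed in the coyote comparison, where 39 of them were higher in the coyote.

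Rac exchange factors, inhibitors and relatives held 6 of 17 measured genes that differed. CDC42, a GTPase closely related to Rac, stood at 3.18 in the coyote and from 1.14 in wolf 11273 through a median of 2.29 to 3.12 in wolf 111080 among the wolves (adjusted p = 1.77e-20). ARHGAP15, which switches Rac off by GTP hydrolysis, stood at 2.95 in the coyote, and at 0.51 in wolf 11273 and 2.65 in wolf 11310 as the lowest and highest wolves (adjusted p = 6.57e-24). Its coyote value lay above all wolves, but the difference of 1.29 did not pass (adjusted p = 0.998). DOCK2, the main Rac exchange factor of white cells, had 1.15 in the coyote, and 0.24 in wolf 11273 and 1.41 in wolf 11206 as the extremes of the wolves (adjusted p = 1.20e-10). Its partner ELMO1 was highest in wolf 111080 at 0.72, with a mean below the bound.

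The exchange factor TIAM1 and the Rac-inactivating protein BCR ran closer to RAC1 than CDC42, ARHGAP15 and DOCK2 did. TIAM1 had a level of 1.61 in the coyote, against 0.99 in wolf 11136 and 2.28 in wolf 11273 as the extremes of the wolves (adjusted p among wolves 4.30e-06). BCR had 1.54 in the coyote, with the same 2 wolves as extremes, 0.97 and 1.85 (adjusted p = 0.000557). As a description over 13 wolves on shared arrays, TIAM1 had an r of 0.65 with RAC1 and 0.81 with NCF1, and BCR 0.83 and 0.87. Over the 1595 genes above the bound the median r was 0.51 with RAC1 and 0.548 with NCF1, so high values are common there. For CDC42 the values were -0.14 and -0.22, for ARHGAP15 -0.26 and -0.29 and for DOCK2 0.02 and -0.10. CDC42, ARHGAP15 and DOCK2 were lowest in wolf 11273, which had the highest NCF1.

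Among receptors and kinases that trigger the burst, 4 of 31 genes differed. GNAI2, a G protein subunit through which chemoattractant receptors act, had 5.01 in the coyote, and 2.48 in wolf 11136 up to 5.23 in wolf 11270 (adjusted p = 2.18e-26). PLCG2, the phospholipase downstream of Fc receptors, had 0.79 in the coyote, and 0.20 in wolf 11273 up to 1.28 in wolf 11136 (adjusted p = 4.77e-16), so the wolf lowest in NCF1 was highest in PLCG2. ITGB2, the beta chain of the leukocyte integrins, and the Fc receptor gene FCGR2A passed at mean levels below the bound, 0.05 and 0.26.

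NADPH supply genes differed in 1 of 10, PGD of the pentose phosphate pathway, with a mean of 0.12. Granule enzymes and users of hydrogen peroxide differed in 2 of 17. SOD2, which turns superoxide into hydrogen peroxide in mitochondria, had 1.39 in the coyote, and 0.29 in wolf 10406 up to 1.15 in wolf 11206 (adjusted p = 7.86e-05), and PRDX1, a peroxidase, had a mean of 0.18. The remaining oxidase parts, among them RAC3, the proton channel HVCN1 and other NOX and DUOX enzymes, differed in 0 of 11, and 0 of 11 lay above the bound.

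**Figure D5:**
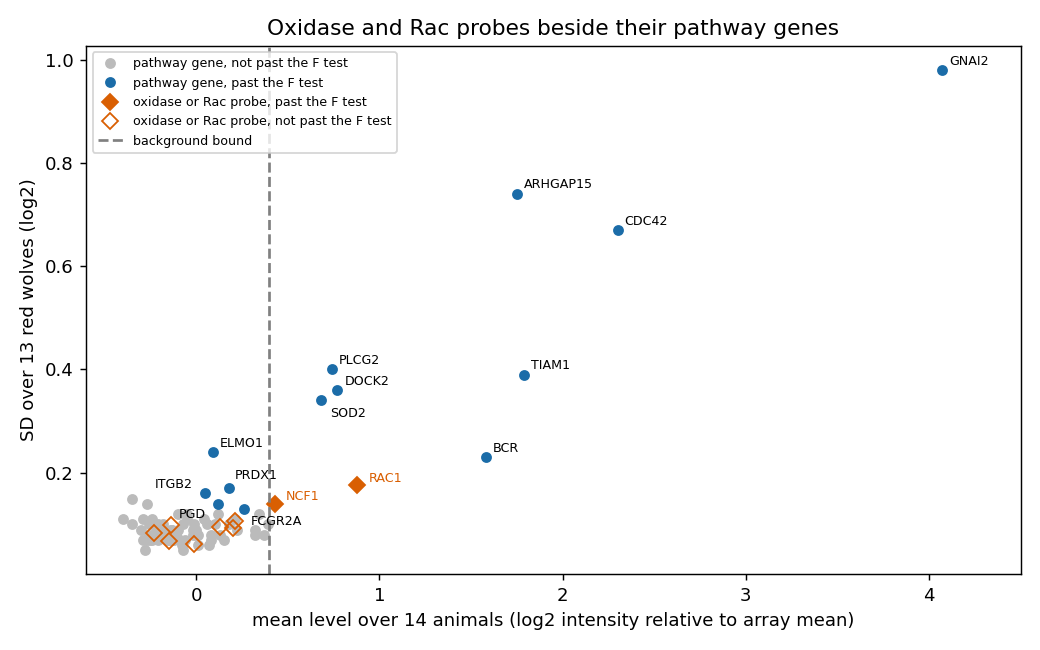
SD over the 13 red wolves (log2) against the mean level over 14 animals (log2 intensity relative to the array mean) for the 86 pathway genes (circles) and the 9 oxidase and Rac probes (diamonds), with the background bound of 0.396 (dashed line). All 8 pathway genes right of the bound passed the F test, as did 78.1% of all probes above it. RAC1 and NCF1 had smaller SDs, 0.18 and 0.14, than each of these 8 genes.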

How the data were processed

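Human Illumina bead arrays were scored by the authors as log2 intensities, per the labels' design text, with BeadStudio 1.5.0.34 named in the submitters' processing notes. By the same text the authors centred arrays on the median, but each deposited array has a mean of 0 (largest absolute mean 3.24e-09) and medians lie between -0.167 and -0.0325. The sources used here do not state whether background was subtracted. The 95th percentile was 0.332 to 1.24 across arrays. Names came from the platform annotation (18339 probes with 1 symbol, 6015 unnamed).

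Tests were run in limma 3.58.1 (R 4.3.3) on all 24354 probes, using eBayes with a trend and Benjamini-Hochberg adjustment, threshold 0.05. Wolves were compared by the F test of the animal terms, and the coyote on 1 slide-adjusted value per animal. Correlations used 100000 two-sided permutations. A gene was represented by its probe with the highest mean. Named were all member probes, at most 6 genes past the F test per pathway list (largest SD), and the 5 genes above the bound most like each member that passed. The cell markers and the other oxidase parts named were picked knowing their values. Scripts were tested on simulated data. Alternatives were other centrings, quantile normalization, no slide or trend, a filter on dim probes, and leaving out wolves or arrays (numbered 1 to 4 per animal in accession order); those leaving out 2 or 3 wolves together were added after seeing the data. Members and lists were chosen with earlier results of these data known.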

Additional observations from a re-analysis of the deposited data

Results flagged for a closer look

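In 9 of 126 sets of 4 arrays (9 probes in 14 animals, values adjusted for slide) 1 array stood apart from the other 3 by Dixon's test; chance gives about 1 in 20. For the RAC1 probe of all isoforms, wolf 111080 had 0.91 on slide 32020, against 1.16 to 1.18 on its other slides. For NCF1, wolf 111080 had 0.34 on slide 32021, against 0.46 to 0.48. For the NCF4 probe of NM_000631, wolf 10406 had 0.43 on slide 32022 (others 0.11 to 0.16) and wolf 10537 had 0.39 on slide 32010 (0.20 to 0.21). For the NCF4 probe of all isoforms, wolf 11275 had 0.03 on slide 32021, with the others at -0.17. For the Rac1b probe, wolf 11148 had -0.53 on slide 32013 (others -0.14 to -0.06), wolf 11273 -0.31 on slide 32011 (-0.09 to -0.06) and wolf 11275 -0.13 on slide 32020 (0.01 to 0.03). For RAC2, wolf 11275 had 0.25 on slide 32021 (0.05 to 0.08).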

How the results depend on the processing

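The count of probes that differed among wolves (2732) stayed within 1.5 times of that value under other centrings and without the slide or trend term; it was 1790 with dim probes left out, 1784 without wolves 11136 and 11310 and 1606 without 10632, 11136 and 11310. It was 1629 to 2396 without 1 array number (1629 without number 3) and 2226 to 2770 without 1 wolf. The coyote count (1) was 2 with centring on the 75th percentile, 0 with no trend, 1 to 4 without 1 wolf (4 without 11310; 2 without 111080, 11136 or 11148), 1 without each array number, 4 without the pair of wolves and 2 without the trio. Of 15 member pairs (1 passed), 2 passed with median centring, 2 with no slide term, 0 with quantile normalization, 0 to 2 without 1 array number or wolf (0 without 10632 or 11310 or array number 3; 2 without 11206 or array number 1 or 2), and 0 without the pair or trio. Of 66 relations with measures (1 passed), 6 passed with median centring, 3 with the 75th percentile, 3 with quantile normalization, 6 with no slide term, 10 with list genes above the bound, 0 to 2 without 1 array number, 0 to 3 without 1 wolf and 0 without the pair or trio.

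RAC1 kept its call among wolves in 22 of 26 settings and NCF1 in 17 of 26. Of the losses, 2 for each gene are those without the pair or the trio of wolves, which were picked for their low RAC1 and NCF1 levels, so that choice itself narrows the spread and these losses say nothing about stability. Without 1 array number, adjusted p values were 0.00331 to 0.0649 for RAC1 and 0.0276 to 0.458 for NCF1 (0.458 and 0.201 without numbers 2 and 3). The NCF4 probe for all isoforms passed in 1 setting, without array number 1 (0.0494). The coyote difference of RAC1, near 0, changed sign with the 75th percentile (0.0135) and quantile normalization (0.000341), and ranged over -0.196 to 0.0752 without 1 array number and -0.0358 to 0.0164 without 1 wolf. Without 1 array number the coyote differences ranged over -0.0941 to 0.046 for CYBA, -0.0965 to 0.0264 for NCF1, -0.0225 to 0.145 for the NCF4 probe of NM_000631, -0.0852 to 0.0812 for that of NM_013416 (-0.000578 without the pair of wolves) and -0.108 to 0.00346 for Rac1b. Correlations with the signal range under quantile normalization, -0.364 for RAC1 and -0.257 for NCF1, cannot be read, since the arrays then share the same range but for ties. The causes were not tested. Array noise near background limits the 7 probes below the bound. No paired analysis was possible because the array numbers pair nothing between animals.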
